A study of Sus scrofa with 8 samples.

Results

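CD46, CD55, CD59 and C3 were followed in the whole blood of miniature pigs, as membrane regulators of complement and a protein of the complement cascade. Probes were taken when the array's gene name was a member's symbol, or when the probe description gave that symbol in parentheses or the full gene name. CD46 has no probe under its current symbol, and its only probe carries the older symbol MCP, which the RefSeq gene table pairs with CD46 alone, so that identity rests on the name in the file. In all, 6 of the 43603 probes of the array belonged to the 4 genes, out of 1957 genes that could be named: 1 of CD46, 3 of CD55, 1 of CD59 and 1 of C3. Of these, 4 passed the filter used for testing, which kept the 17355 probes that stood well above background on 4 or more of the 8 arrays, counted without regard to diet.

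The animals were 8 female conventional miniature pigs of 8 to 9 months, called Clawn in the design text, with no transgene named in the labels. The 4 control pigs ate standard dry feed, and the 4 SDW pigs ate a ration made of equal weights of that feed, shochu distilled water (SDW) and plain water. Feeding lasted 12 weeks by the design text; by the descriptions of single samples it lasted 14, 15, 16 or 17 weeks, in the order of the replicate numbers. Each pig gave 1 whole blood RNA sample, kept in PAXgene tubes, and 1 array with a single dye, Cy3.

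Complement is a cascade of plasma proteins in which C3 is cleaved and its larger fragment attaches to nearby surfaces. Host cells carry inhibitors that stop the cascade on their own membranes. CD46 is a transmembrane cofactor for the protease factor I, which inactivates C3b and C4b. CD55, or decay-accelerating factor, takes apart the convertases that cleave C3. CD59 acts last and blocks assembly of the membrane attack complex. CD55 and CD59 are held in the membrane by a glycosylphosphatidylinositol (GPI) anchor, and the liver makes most of the C3 in plasma.

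The probes are oligonucleotides of 60 bases and are shown because each gene's values rest on very few of them. The C3 probe is given whole; for the others, whose place in coding or untranslated sequence the files do not give, the first 30 bases are given, 5′ to 3′ and with no part marked by capitals.
CD46, A_72_P402704: ttcccggagaagataaagtggataaaccta
CD55 probe A, A_72_P299774: gttttgcatgtaataattggatgcccgcaa
CD55 probe B, A_72_P165046: attgagagcaattactttccaaaaagggtg
CD55 probe C, A_72_P424034: agtgttgaaccactaaatggttcaggtttt
CD59, A_72_P146701: tttggattagagagagaaactttgagcgac
C3, A_72_P165601: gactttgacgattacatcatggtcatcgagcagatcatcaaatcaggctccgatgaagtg
The CD55 probes differ from each other: over their whole length, probes A and B share at most 5 bases in a row, and probe C shares at most 6 with either. Probe B was designed on the RefSeq transcript of CD55 (NM_213815), whereas probes A and C stand on separate assembled clusters (TC270858 and TC298355) whose descriptions name decay-accelerating factor CD55. The CD59 and C3 probes were designed on RefSeq transcripts (NM_214170 and NM_214009), and the C3 probe starts at base 4726 of its transcript. The files give no genome position for these probes.

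The arrays lay on 3 slides. Slide 1 held control 3, SDW 2 and SDW 3, slide 2 held control 2, control 4 and SDW 1, and slide 3, the only one scanned on another day, held control 1 and SDW 4. Slide accounted for a median of 44.7% of a probe's variance and diet for 4.97%, and results for the members are therefore also given within slides. These shares are not adjusted for the number of levels, and slide has more levels than diet. The share of probes well above background ran from 35.2% to 43.5%, and no probe was saturated. Markers of neutrophils, monocytes, T cells, B cells, cytotoxic cells, eosinophils and platelets were measured; the 8 listed red cell markers had no named probe. Levels are log2 signals minus the 75th percentile of the same array, so a value of 0 is that percentile. The number of arrays limits the precision, and in whole blood fewer cells of a type and less RNA per cell cannot be told apart.

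CD46 was the member whose values separated the diets, by a moderate amount and without passing the test over all probes. Its level in controls was 0.17, 0.05, 0.31 and 0.91 in replicates 1 to 4, and in SDW animals it was -0.12, -0.49, -0.15 and -0.51. Every SDW animal lay below every control, and control 4 was the highest of all. Controls averaged 0.36 ± 0.38 (SD, n = 4) and SDW animals -0.32 ± 0.21 (SD, n = 4). SDW minus control was -0.68 on the log2 scale (SE 0.25), with a 95% interval from -1.25 to -0.11, a level in SDW animals 0.624 times that of controls (limma, unadjusted p = 0.0234; adjusted p = 1.00 after Benjamini-Hochberg over all tested probes).

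**Figure D1:**
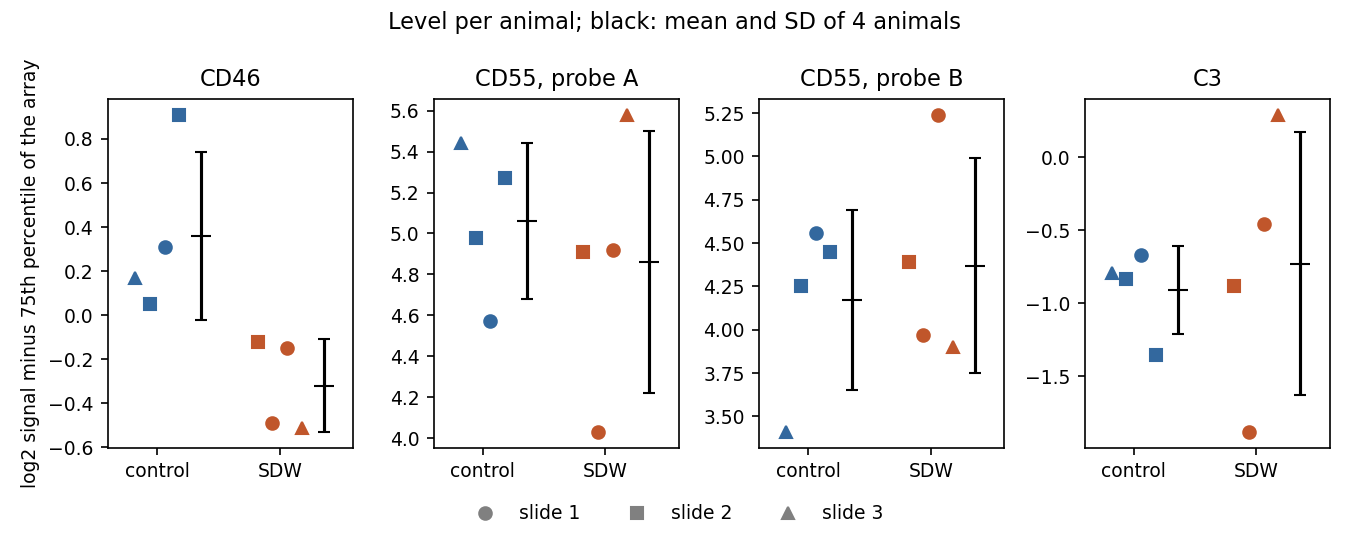
Log2 signal of each animal relative to the 75th percentile of its array for CD46, CD55 probes A and B and C3, by diet, with the slide as the symbol and the mean and SD of 4 animals in black. The CD46 values of the diets do not overlap (-0.51 to -0.12 against 0.05 to 0.91), whereas those of CD55 and C3 do; each panel has its own scale.

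The background for this difference is given by the shares over all tested probes. At an adjusted p under 0.05 limma called none of the 17355 probes (0%). At an unadjusted p under 0.05 it called 251 (1.45%), with 90 lower (0.519%) and 161 higher (0.928%) in SDW animals. Of the 17346 probes with a value on every array, 67 (0.386%) had all SDW animals below all controls, and 171 (0.986%) had no overlap in either direction. For 92 probes p was smaller than for CD46, and 95.4% of probes had a smaller absolute difference. The exact permutation test gave p = 0.0286 for CD46 (two-sided), the smallest that 70 assignments of 4 of 8 animals can give. With no difference between the diets, shares of 0.05 for an unadjusted p under 0.05 and 0.0286 for no overlap would be expected. The shares over all probes (1.45% and 0.986%) lie below these, so a low share does not make the CD46 difference rare. The reason was not tested. The lower CD46 of SDW animals was already among earlier results of these arrays, so its p and the lack of overlap are descriptions of these animals.

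The mean CD46 difference was of similar size on each slide, from few arrays per slide. Within slides 1, 2 and 3, SDW minus control was -0.64, -0.60 and -0.68. On slide 2, SDW 1 (-0.12) lay near control 2 (0.05) and far below control 4 (0.91), and slide 3 compared single animals. A lower value on each of the 3 slides was seen for 2201 of 17346 probes (12.7%). With no overlap between the diets that sign was fixed for CD46, so it adds no separate support. With slide as a fixed block the difference was -0.63 (SE 0.25; limma, unadjusted p = 0.0314; adjusted p = 0.731), and in that fit 556 probes (3.2%) were lower at an unadjusted p under 0.05. The unadjusted p of CD46 came to 0.0571, 0.0579 and 0.0576 in limma without control 4, SDW 2 and SDW 4 in turn. Diet accounted for 61.7% of the variance of CD46 and slide for 22.0%, the reverse of the order seen for the median probe. As the lower CD46 was known beforehand, this share too is only a description. Before arrays were scaled to each other the diets did overlap, at signals of 51.2 to 110.3 in controls and 28.1 to 56.3 in SDW animals; in the authors' value table they did not, at 54.3 to 103.2 against 36.5 to 48.5. With normexp background correction the difference was -0.33 (SE 0.13). That setting adds an offset of 50 to each signal, which by itself shrinks log2 differences at signals as low as these.

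**Figure D2:**
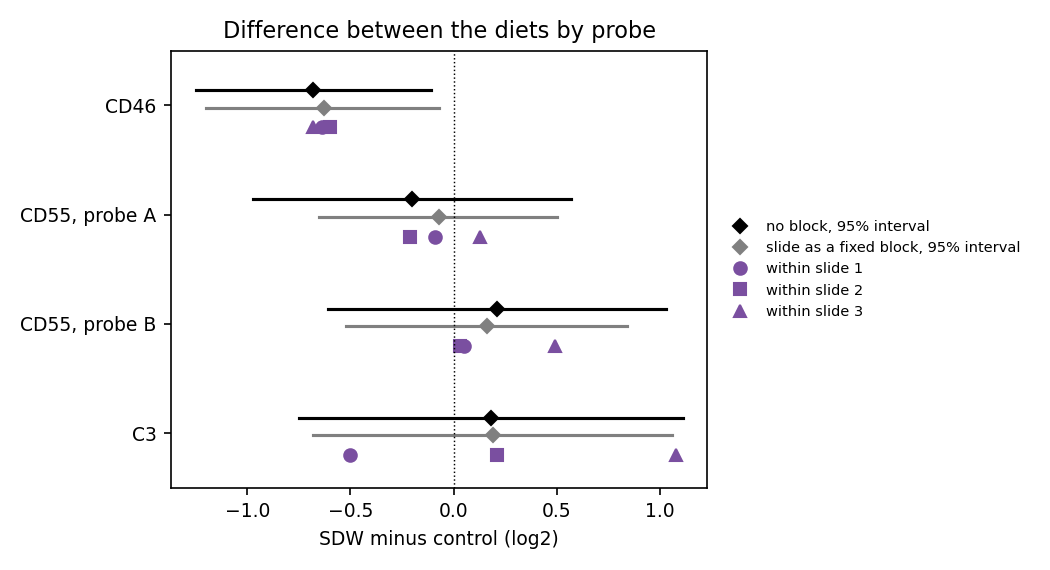
SDW minus control on the log2 scale for each measured probe, with the 95% interval of limma without a block (black) and with slide as a fixed block (grey), and the difference within each slide (purple). For CD46 the values within slides lie between -0.68 and -0.60; for C3 they run from -0.50 to 1.08.

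CD55 gave strong signals through both of its measured probes, and neither separated the diets. Probe A read 5.44, 4.98, 4.57 and 5.27 in control replicates 1 to 4 and 4.91, 4.03, 4.92 and 5.58 in SDW replicates 1 to 4. The means were 5.06 ± 0.38 (SD, n = 4) and 4.86 ± 0.64 (SD, n = 4), with SDW 2 the lowest animal and SDW 4 the highest. SDW minus control was -0.20 (SE 0.34), with a 95% interval from -0.97 to 0.57 (limma, unadjusted p = 0.566; adjusted p = 1.00), or 0.509 to 1.48 times the control level. Without SDW 2 the sign turned, to 0.07.

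Probe B of CD55 had a difference of the opposite sign. It read 3.41, 4.25, 4.56 and 4.45 in control replicates 1 to 4 and 4.39, 3.97, 5.24 and 3.90 in SDW replicates 1 to 4. Control 1 was the lowest animal and SDW 3 the highest, and the diets overlapped. The means were 4.17 ± 0.52 (SD, n = 4) and 4.37 ± 0.62 (SD, n = 4), or SDW minus control of 0.21 (SE 0.37), with a 95% interval from -0.61 to 1.03 (limma, unadjusted p = 0.585; adjusted p = 1.00). Without control 1 it was -0.05, and without SDW 3 it was -0.08. Each probe's 95% interval contains the other probe's difference.

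The difference between the CD55 probes followed the slides, in a pattern noticed in these 8 arrays and not tested. After each probe was centred on its own mean, A minus B was 1.35 in control 1 and 0.99 in SDW 4, the arrays of slide 3. It was -0.68, -0.63 and -1.01 in control 3, SDW 2 and SDW 3, the arrays of slide 1. On slide 2 it was 0.03 in control 2, 0.13 in control 4 and -0.16 in SDW 1. The slides thus do not overlap in this difference, whereas each diet spans nearly its whole range. Slide accounted for 72.2% of the variance of probe A and 53.5% of that of probe B, against 4.84% and 4.2% for diet. Over the 8 arrays the probes had a Pearson correlation of -0.25, and of 0.91 after the mean of each slide was subtracted, a description over arrays that share slides.

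**Figure D3:**
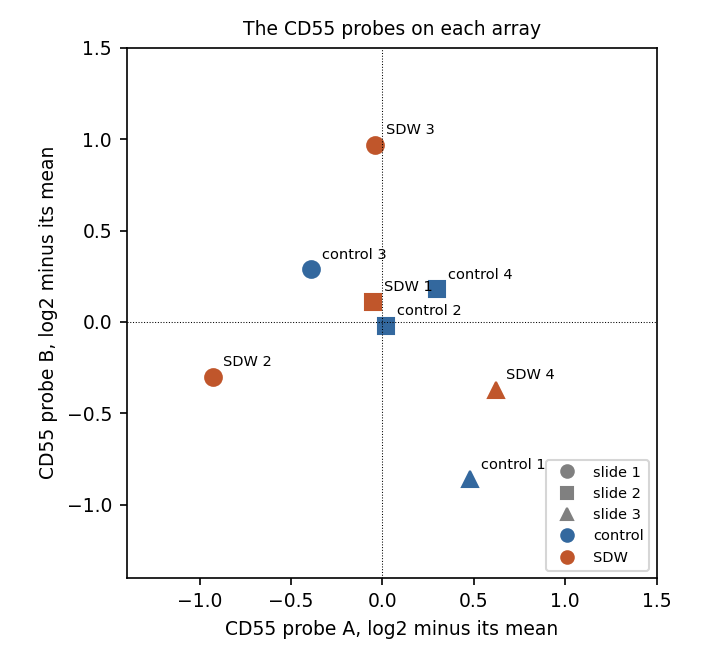
CD55 probe A (horizontal) against probe B (vertical) on each of the 8 arrays, both as log2 level minus the probe's mean, with colour for diet and symbol for slide. Slide 3 lies at the lower right and the slide 1 arrays lie above and to the left of the diagonal, whatever the diet.

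Probe C of CD55 was not well above background on any array, with signals from 1.91 to 7.51, and was not tested. A further probe, A_72_P430439, named for an expressed sequence tag (AJ960386) and not for CD55, matches 22 bases in a row of the opposite strand of probe B. Controls averaged -0.90 ± 0.40 (SD, n = 4) and SDW animals -0.88 ± 0.53 (SD, n = 4), which differ by 0.02, with a 95% interval from -0.69 to 0.73. It was well above background on all 8 arrays, and whether it reads a transcript of the CD55 locus was not tested.

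CD59 could not be compared between the diets. Its probe was not well above background in any of the 4 controls or 4 SDW animals, with signals from 2.35 to 5.41 in controls and from 2.31 to 11.2 in SDW animals. This bounds only what that probe detects. An unnamed probe, A_72_P305914, shares the accession AK238416 with the CD59 probe in the array's own annotation and was chosen for that shared entry. It was well above background on all 8 arrays, at 2.02, 2.48, 2.37 and 2.64 in control replicates 1 to 4 and 2.41, 2.64, 1.61 and 1.33 in SDW replicates 1 to 4. SDW 3 and SDW 4 were the lowest animals, while SDW 1 and SDW 2 lay within or at the edge of the range of controls. SDW minus control was -0.38 (SE 0.32), with a 95% interval from -1.11 to 0.34 (limma, unadjusted p = 0.268; adjusted p = 1.00). It was -0.16 without SDW 4, -0.25 without SDW 3 and -0.60 without SDW 2. Whether this probe reads CD59 was not tested.

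C3 was detected in blood RNA of every animal, at signals from 19.9 to 48.8. Its level was -0.79, -0.83, -0.67 and -1.35 in control replicates 1 to 4 and -0.88, -1.88, -0.46 and 0.29 in SDW replicates 1 to 4. The lowest and the highest animal both belonged to the SDW group, and 4 controls lay between them. The means were -0.91 ± 0.30 (SD, n = 4) and -0.73 ± 0.90 (SD, n = 4), or SDW minus control of 0.18 (SE 0.42), with a 95% interval from -0.75 to 1.11 (limma, unadjusted p = 0.680; adjusted p = 1.00). The sign rested on SDW 4: without it the difference was -0.16, and without both arrays of slide 3 it was -0.13. Within slides 1, 2 and 3 it was -0.50, 0.21 and 1.08.

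CD46 and C3 were then set against each other within each animal, each centred on its own mean. CD46 minus C3 was 0.12, 0.03, 0.14 and 1.42 in control replicates 1 to 4 and -0.08, 0.54, -0.53 and -1.64 in SDW replicates 1 to 4. It was above 0 in 4 of 4 controls and in 1 of 4 SDW animals, SDW 2, whose C3 was the lowest measured. The means were 0.43 ± 0.66 (SD, n = 4) and -0.43 ± 0.92 (SD, n = 4), a difference of -0.86 that came to -0.45 without SDW 4 and to -0.55 without slide 3. Within slides 1, 2 and 3 it was -0.13, -0.81 and -1.76. The same difference for CD55 was -0.38 by probe A and 0.03 by probe B, and groups overlapped for all 3 regulator probes. These contrasts were not tested, since the genes were chosen with results of these arrays known, and a ratio within an array shows only unequal change.

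**Figure D4:**
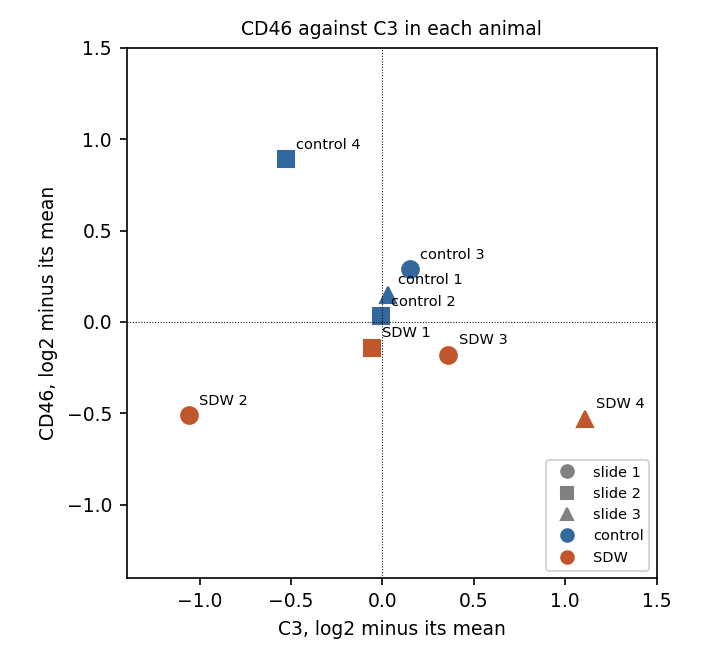
CD46 (vertical) against C3 (horizontal) in each animal, both as log2 level minus the gene's mean over the 8 arrays, with colour for diet and symbol for slide. All 4 SDW animals lie below 0 for CD46, while their C3 runs from -1.06 to 1.11.

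The rest of the complement system was read from a list of 49 genes by role. Of these, 11 were measured, 15 had probes that did not pass the filter and 23 had no named probe. Genes of this and the other lists were sought only among the 3040 probes that could be named by symbol or accession. Full gene names in probe descriptions were not searched for them, so a gene with no named probe may still be on the array. Without a block, none of the 11 passed the test (limma, adjusted p under 0.05), and 0 had an unadjusted p under 0.05. With slide as a fixed block none passed at an adjusted p under 0.05, and only CRP had an unadjusted p under 0.05. Without the block, SDW exceeded control for 5 and fell short of it for 6. The median difference was -0.01, against 0.02 over all tested probes, of which 8179 (47.1%) were lower in SDW by any amount. All 7 terminal pathway genes, C5 to C9 with the chains of C8, had probes, and none of these 13 probes was well above background on more than 1 array. The same held for C4BPA, a chain of the plasma inhibitor C4b-binding protein, and for the C1q chains. Of 6 hepatocyte markers, 4 had probes and none passed the filter.

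In the classical and lectin pathways 5 of 18 listed genes were measured. FCN2, a ficolin that recognises microbial sugars, averaged -1.15 ± 0.94 (SD, n = 4) in the control diet and -0.47 ± 0.17 (SD, n = 4) in the SDW diet, higher in the latter by 0.68 (SE 0.42), and by 0.24 without control 1. FCN2 was well above background in 3 of 4 controls. CRP, an acute-phase pentraxin that can bind C1q, differed by -0.58, and by -0.04 without SDW 1. With slide as a fixed block CRP differed by -0.99 (limma, unadjusted p = 0.0378). In that fit 556 of 17355 probes (3.2%) were lower at an unadjusted p under 0.05. Within slides 1, 2 and 3 CRP differed by -1.13, -1.63 and 0.05. C2, the protease of the classical C3 convertase, differed by 0.28, and by 0.02 without control 4 or 0.51 without control 3.

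In the alternative pathway, CFD, the protease factor D, differed by 0.35 at one probe and by -0.20 at another. CFB, the protease of the alternative C3 convertase, differed by 0.50, and by -0.31 without SDW 4, which also had the highest C3. Among soluble regulators, VTN (vitronectin) differed by -0.46 and CLU (clusterin) by -0.35, both being inhibitors of the membrane attack complex. Both signs turned when a single array was left out, VTN coming to 0.04 without SDW 1 and CLU to 0.12 without control 1, and CLU was -0.92 without SDW 4. The other measured probe of VTN differed by 0.12. Among receptors, C5AR1, the C5a receptor of neutrophils and monocytes, differed by -0.64 with a 95% interval from -1.65 to 0.38, and between -1.02 (without SDW 3) and -0.36 (without SDW 1) with an array left out. ITGB2, the beta chain of complement receptors 3 and 4, differed by -0.01 at one probe and by -0.38 at another.

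**Figure D5:**
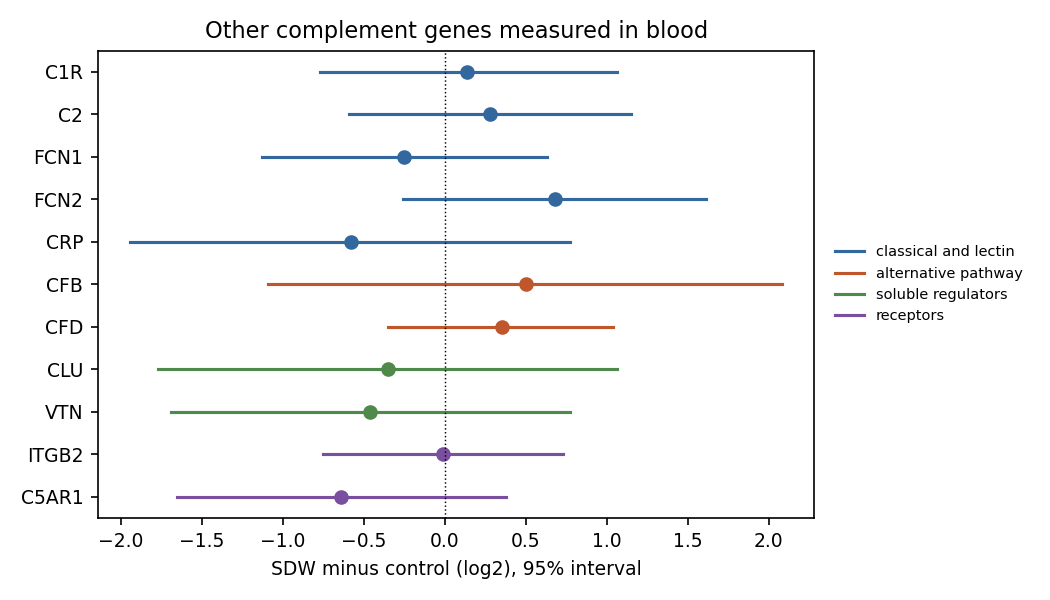
SDW minus control on the log2 scale for the 11 measured complement genes other than C3, with 95% intervals from limma without a block, coloured by role. All intervals include 0, and the differences run from -0.64 for C5AR1 to 0.68 for FCN2.

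Of 27 genes that make or attach the GPI anchor of CD55 and CD59, 26 had no named probe. PIGK, a subunit of the enzyme that attaches the anchor, differed by 0.05 and was detected on 2 arrays of each diet. Among blood cell markers, none passed the adjusted test, and 47.1% of all tested probes were lower in SDW animals. All 5 measured neutrophil genes of 10 listed were lower in SDW animals, as CD46 was, with a median difference of -0.76. The mean of their centred levels ran from -0.27 to 1.06 in controls and from -0.64 to 0.24 in SDW animals. Control 1 was the highest control for LTF, TREM1 and NCF1. LTF and NCF1 differed by -0.76 each, and without control 1 by -0.37 and -0.23. All 5 genes stayed lower whichever single array was left out. Both measured cytotoxic cell genes were lower too (median -0.64), as was the only B cell gene (-0.51), and GNLY, a granule protein of cytotoxic cells, differed by -0.71 (limma, unadjusted p = 0.0391). In the other direction, all 3 eosinophil and basophil genes were higher, with a median of 0.82 and a mean centred level of -1.36 to 0.08 in controls and -0.12 to 0.94 in SDW animals. Control 1 was the lowest control for CCR3, MS4A2 and ALOX15. MS4A2 and CCR3 differed by 0.97 and 0.53, and without control 1 by 0.45 and 0.26. MS4A2 was well above background in 3 of 4 controls. All 3 genes stayed higher whichever single array was left out. Of 4 monocyte genes 3 were higher (median 0.07), CD163 and LYZ only by 0.10 and 0.05. CCR2, a chemokine receptor, had no overlap between diets at a difference of 0.88 (limma, unadjusted p = 0.00474). CD14 was lower, with differences of -0.73 at one probe and -1.19 at another. With slide as a fixed block CCR2 differed by 0.84 (limma, unadjusted p = 0.0045) and CD14 by -0.90 (limma, unadjusted p = 0.011). In that fit MS4A2 differed by 1.16 (limma, unadjusted p = 0.00476) and ALOX15 by 0.86 (limma, unadjusted p = 0.0314). GNLY came to -0.86 (limma, unadjusted p = 0.00768). NCF1 and TREM1 came to -0.83 and -0.84 (limma, unadjusted p = 0.0149 and 0.0195). The other measured markers had an unadjusted p above 0.05 there. Over all 17355 probes, 1145 had an unadjusted p under 0.05 in that fit, 556 lower and 589 higher in SDW animals. The cell markers named in this paragraph were picked after their values were seen. Of 6 T cell genes 3 were higher and 3 lower (median -0.09), and of 3 platelet genes 2 were higher (median 0.13). The part of these cell types in the CD46 values was not tested.

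Profiles most like each member were sought among 1092 other named genes, by Pearson correlation over the 8 arrays. For CD46 the nearest was LY75, an endocytic receptor of dendritic cells, with r = 0.86 (0.84 after slide means were subtracted), followed by TXNRD1, a thioredoxin reductase, with r = 0.81 and ACSL4, a fatty acid ligase, with r = 0.80. LY75 was itself lower in SDW animals, by 1.16 on the log2 scale (a difference of -1.16). For CD55 probe A the nearest were CST3 (cystatin C), AQP5 (an aquaporin) and INHA (an inhibin chain), with r = 0.92, 0.91 and 0.90. For probe B they were PPP2CB, ARF4 and SPINK4, with r = 0.93, 0.92 and 0.90. No gene was among the 3 nearest of both CD55 probes, in ranks made before slide means were subtracted. With slide means subtracted, r was 0.72, 0.91 and 0.88 for the probe A genes and 0.87, 0.81 and 0.81 for the probe B genes. The CD55 probes themselves then correlated at 0.91, against -0.25 before. For C3 they were TAS1R3, P2RY2 and TNNI3, with r = 0.92, 0.91 and 0.90. These are the highest of many correlations over few arrays that share slides, and they are given as description.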

How the data were processed

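Per the file headers, the deposited scanner files hold spot intensities from Agilent Feature Extraction (version 10.1.1.1; 9.5.3.1 per the submitters' processing notes), background-subtracted and detrended within the array and not normalized between arrays. The authors' deposited value table holds intensities by a method not given in the sources used here; 7 of its 8 columns matched the scanner values of a different animal on that diet. Replicate names follow the scanner files.

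Control spots and spots marked as outliers were dropped, repeat spots averaged, and each array's 75th percentile subtracted from its log2 signals. SDW was set against control by limma 3.58.1 under R 4.3.3 (two-sided, no covariate, Benjamini-Hochberg over 17355 probes, threshold 0.05). The fit was also run on simulated data with independent arrays and no slide effect, so that run does not cover the slides of this design. The main probe of a gene was its tested probe of highest mean level. Of all probes, 3040 were named through the RefSeq table (Sscrofa11.1) or the file's own symbols. Genes of the complement, GPI anchor and cell marker lists were sought only among these named probes. The labels do not say whether samples come from separate litters or pens, so p-values measure the spread between these 8 samples. The genes named were the 4 members, up to 3 complement or GPI anchor genes of smallest p in each role, and the 3 genes most like each member; the cell markers given by name were chosen after their values were seen. Members and lists were chosen with earlier results of these data known. Alternatives covered background correction, normalization, filters, slide, replicate number, and leaving out arrays.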

Additional observations from a re-analysis of the deposited data

Results flagged for a closer look

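Among 84 groups of 4 animals, covering the tested probes of the members, the 2 related probes and all measured genes of the complement, GPI anchor and cell marker lists, 7 held an animal far from the rest, where chance flags about 1 in 20. SDW 2 stood at 4.79 for C2, with the other SDW animals between 3.75 and 3.82. SDW 4 stood at 2.12 for CFB, with the other SDW animals between -1.48 and -0.89. Control 1 stood above the other controls for 3 cell markers: at 4.68 against 3.24 to 3.35 for TREM1, at 4.00 against 1.72 to 2.04 for NCF1, both neutrophil genes, and at 3.46 against 1.81 to 1.95 for the T cell gene CD3E. For CD3D, another T cell gene, SDW 1 stood at 6.25 against 5.47 to 5.54, and for CD8B control 2 stood at 0.41 against -0.58 to -0.42. No member was among them.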

How the results depend on the processing

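CD46 was lower in SDW animals under all 18 alternatives, at -0.78 to -0.50 with 1 array left out and -0.70 to -0.33 otherwise, with adjusted p from 0.731 to 1.00 in limma. The -0.33 came from normexp background correction, whose offset of 50 shrinks log2 differences at low signals. CD55 by probe A kept its sign except without SDW replicate 2 (0.07; range with 1 array left out -0.44 to 0.07) and with probe B in its place (0.21). C3 kept its sign except without SDW replicate 4 (-0.16; range -0.16 to 0.56) and without slide 3 (-0.13). Over all probes, 0 were called except without slide 3, where 1 unnamed probe that is no member was called (limma, adjusted p = 2.77e-05); the cause was not tested. At an unadjusted p under 0.05 the count was 251, and 1145 with slide as a fixed block. With the replicate block, CD46 differed by -0.68 (limma, unadjusted p = 0.0533), CD55 by -0.20 and C3 by 0.18, with 0 calls. After the mean of its diet was subtracted from each animal's probe levels, same-numbered animals correlated over the tested probes. These correlations of deviations were -0.17, 0.105, 0.333 and -0.379 for replicates 1 to 4. Only those of replicate 3 shared a slide, so these correlations cannot decide whether the numbers are pairs. The feeding weeks in the sample descriptions follow the replicate numbers. The main fit did not pair the animals. No complement gene was called under any alternative. CD59 had no value to vary, its probe not being well above background on any array.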
